A study of Mus musculus with 3 samples.

Results

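The genes described here are 44 genes of DNA replication and S phase, taken by name and found through the accession of each array probe, out of 20887 genes that the arrays' accessions named. All 44 had at least 1 probe well above background on at least 1 array, and 43 could be measured on all 3 arrays. The samples were lymphocytes labelled CD4, taken here as CD4+ T cells, of female C57BL/6 mice aged 8 weeks, collected 2 days after stimulation. They were wild type (WT), Dll1-/- or Rbpj-/-, with 1 one-colour Agilent array for each genotype. Dll1 is a cell surface ligand that activates Notch receptors on neighbouring cells, and Notch target genes are switched on through Rbpj, which binds DNA. The sources used here name neither the cells in which each gene was deleted, nor the stimulus, nor the number of mice behind a sample. With 1 array per genotype there is no replicate spread, so differences are described without a test and compare these arrays, not the genotypes.

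A resting T cell does not copy its DNA. After activation it passes through G1, transcribes replication genes largely under E2F transcription factors, and enters S phase. Copying starts at origins that were licensed by ORC, Cdc6 and Cdt1, which load the ring-shaped MCM helicase. Cdc45 and the GINS complex switch that helicase on. Primase and the polymerases then extend both strands on a sliding clamp, while enzymes of nucleotide synthesis supply the building blocks and histone chaperones rebuild chromatin behind the fork.

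Levels are on a log2 scale on which 0 is the 75th percentile of an array's probes, and where a gene has several probes their mean was taken. Signals of different probes do not give the relative abundance of their genes, so levels are compared between arrays and not between genes. Of the 44 genes, 38 have 1 probe and 6 have 2. Spots printed repeatedly had a median SD between 0.06 and 0.07 log2 on each array. The error that the extraction software assigns to a difference between arrays had a median of 0.20 log2 over these genes, and both figures cover the array measurement only. Both Rbpj probes read lower on the Rbpj-/- array than on the WT array, by log2 differences of -0.35 and -0.66. They stayed well above background there, and differences of this size do not by themselves show the loss of Rbpj. Dll1 gave no signal well above background on any array, so its deletion could not be checked either. Where the Rbpj probes lie relative to the deleted part is not known here.

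Replication genes were lower on the Rbpj-/- array than on the WT array almost throughout, at moderate size, and stood close to WT on the Dll1-/- array. Against WT, 42 of 43 measured genes were lower in Rbpj-/-, with a median log2 difference of -0.42 (1.33-fold), and 1 was higher. Of all 11589 measured genes 60.2% were lower and 39.8% higher, with a median of -0.07. The 10 genes at least 1.5-fold lower were Gins2, Cdc45, Mcm10, Pold2, Rfc3, Rpa2, Fen1, Rrm1, Tk1 and Chaf1a, beside 6.92% of all genes at least that much lower. No measured gene reached 2-fold lower, beside 2.16% of all genes, and 0 were at least 1.5-fold higher, beside 4.88%. By the mean over probes the measured differences lay between -0.76 and 0.12 log2, so the shift was spread over many genes. Orc1 was not well above background in Rbpj-/-, so the size of its difference is unknown. Cdc6 was at -0.88 by its brighter probe alone. Tk1 and Cdc45 lay just inside the 1.5-fold limit, and Mcm3 and Tyms just outside it at 1.49-fold each. Of these, Cdc45 and Tyms rest on dim probes.

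In Dll1-/- against WT, 22 of 44 genes were lower and 22 higher, with a median of 0.00, beside 55.6% of all genes lower. None of the 44 differed by 1.5-fold, where 2.26% of all genes were at least that much lower and 1.96% higher. The differences ran from -0.43 to 0.43 log2. Between the knockouts, 41 of 43 genes were lower in Rbpj-/-, with a median of -0.38, beside 55.1% of all genes. The 5 genes at least 1.5-fold lower there were Cdc6, Mcm10, Rrm1, Tk1 and Chaf1a, beside 6.36% of all genes. The comparisons share arrays, so the values against WT and against Dll1-/- are not independent of each other.

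**Figure D1:**
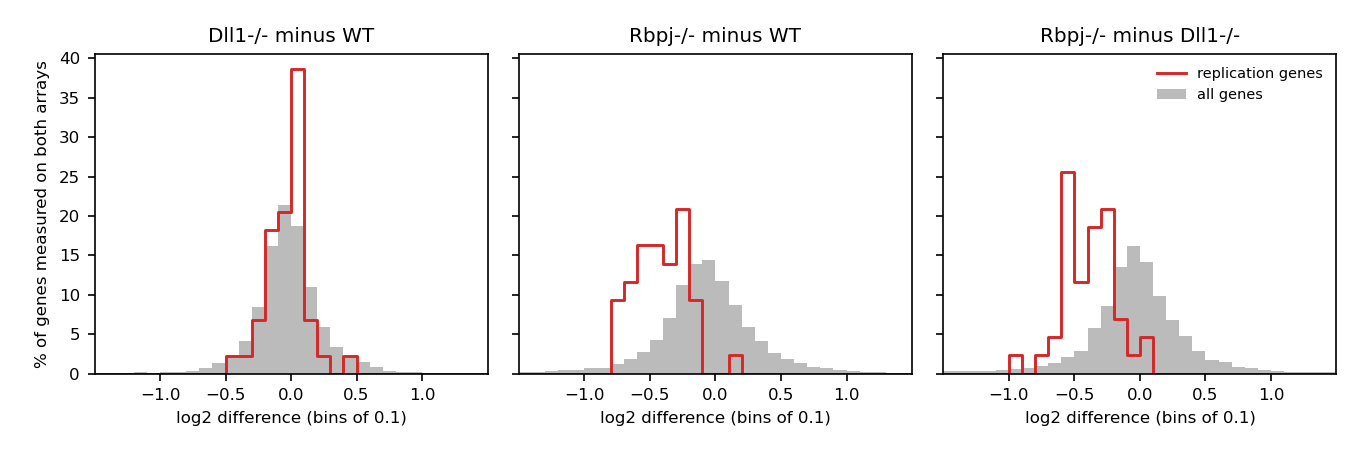
Share of genes (y axis, percent of genes measured on both arrays) by log2 difference (x axis, bins of 0.1) for the 3 pairs of arrays; grey bars are all measured genes and the red line is the replication genes. In both comparisons with Rbpj-/- the red line lies to the left of the grey bars, with medians of -0.42 and -0.38, and in Dll1-/- against WT it sits around 0.

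Lower in Rbpj-/- than in WT by more than the software's own error were 38 of 43 genes, beside 31.8% of all genes, and by more than 2 errors 20 genes, beside 13.3%. In Dll1-/- the figures were 4 of 44 lower, beside 17.8%, and 2 higher, beside 13.9%. Genes on either part of the array surface gave the shift. The 19 genes with probes only in the lower-numbered rows of spots and the 22 with probes only in the higher-numbered rows had medians of -0.47 and -0.38 in Rbpj-/- against WT. Most of these genes had bright probes, 35 of the measured ones with a WT level above 0, so genes that bright were taken as a background too, a choice made after seeing the data. Of the 35, 34 were lower in Rbpj-/-, with a median of -0.41, beside 68.6% of the 7471 genes that bright, whose median was -0.11.

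**Figure D2:**
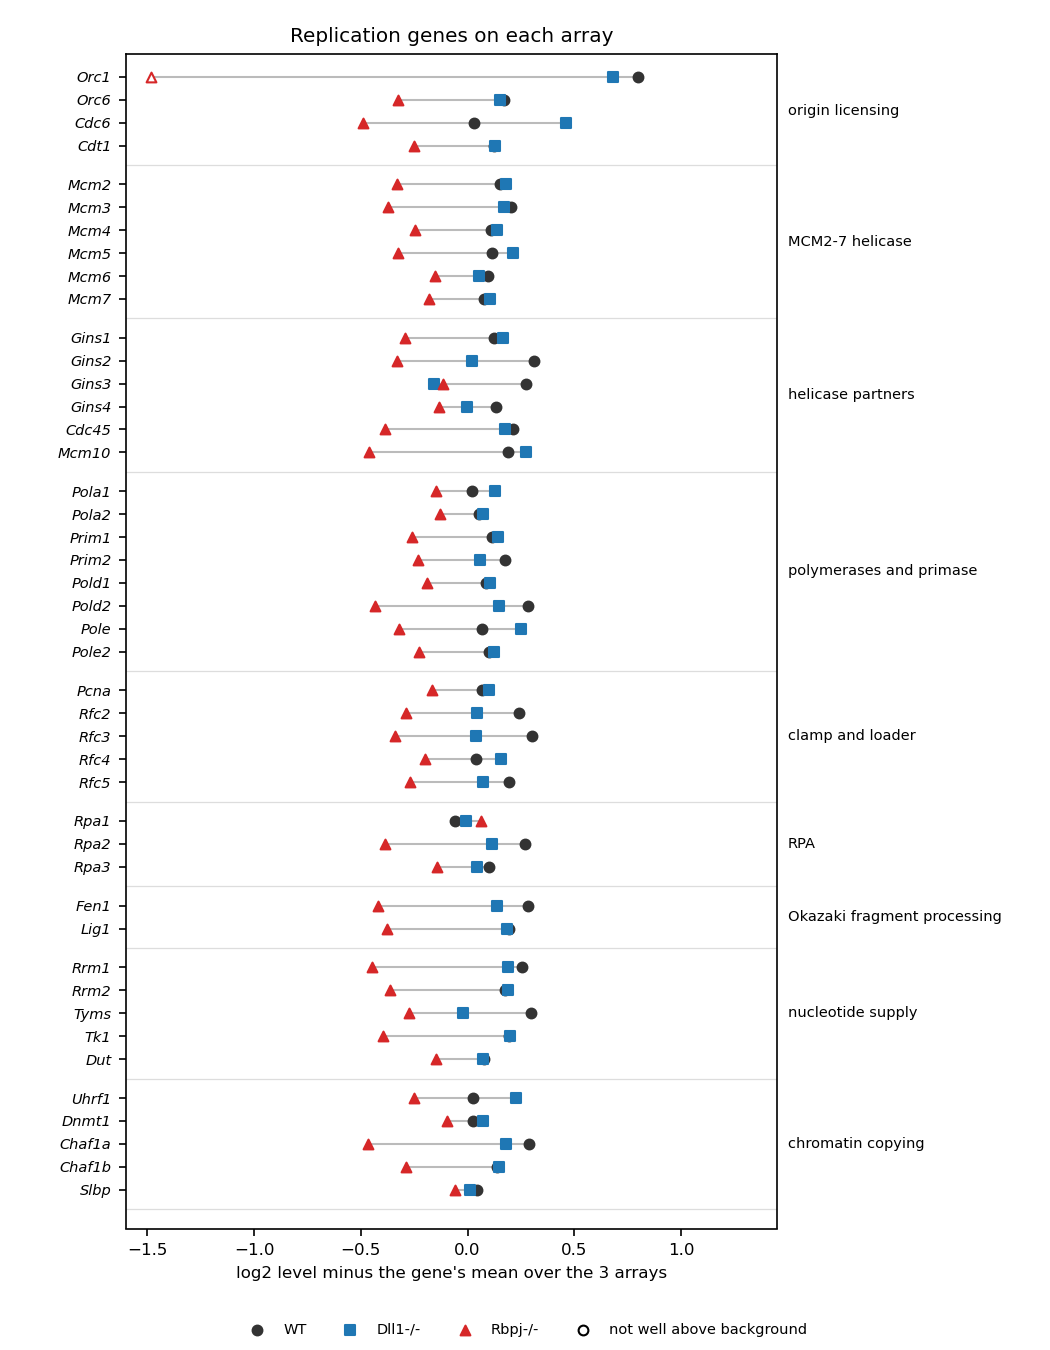
Each row is 1 gene, grouped by role; the x axis gives its log2 level on each array minus its mean over the 3 arrays. Circles are WT, squares Dll1-/- and triangles Rbpj-/-, and an open symbol was not well above background; the triangle lies left of the circle for all genes but Rpa1.

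Promoter sequence is shown for some of these genes because they were lower together in Rbpj-/- and E2F is the textbook regulator of the class. RefSeq promoter sequences of build GRCm38.p6, with 250 bases before and 50 after a gene's start, were matched for 37 of the 44 genes. The E2F words TTTCCCGC and TTTGGCGC, searched on both strands, occur in 12 of those 37 genes (32.4%), beside 1.8% of all 27025 genes in the table. The shorter words TTCCCGC and TTGGCGC, which lie within the longer ones and were added after seeing the data, occur in 21 of 37 (56.8%), beside 7.79% of all genes. CCAAT, the word bound by NF-Y, occurs in 24 of 37 (64.9%), beside 41.1%. GTGGGAA, a core word of Rbpj sites and likewise added later, occurs in 5 of 37 (13.5%), beside 7.25%. The promoters of these genes were also richer in G and C, with a median of 60.0% against 52.7% over all promoters, and how far that bears on the words was not tested. A match is a string of letters and not evidence of binding. The 6 genes with an E2F word before the start are printed 5′ to 3′ on the gene's strand, up to the base before the start, with the word on either strand in capitals.
Cdc6 (chr11:98907901-98908150, plus strand): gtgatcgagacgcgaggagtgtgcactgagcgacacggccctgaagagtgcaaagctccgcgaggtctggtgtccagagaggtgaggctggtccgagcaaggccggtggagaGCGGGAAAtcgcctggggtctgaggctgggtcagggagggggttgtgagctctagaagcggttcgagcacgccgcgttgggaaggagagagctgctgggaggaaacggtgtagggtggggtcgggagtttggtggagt
Gins3 (chr8:95633309-95633558, plus strand): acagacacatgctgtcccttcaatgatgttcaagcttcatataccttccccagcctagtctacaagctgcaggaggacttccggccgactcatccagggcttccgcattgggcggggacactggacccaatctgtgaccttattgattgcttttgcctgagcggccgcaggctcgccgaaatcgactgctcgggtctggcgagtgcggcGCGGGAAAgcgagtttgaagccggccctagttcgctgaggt
Mcm5 (chr8:75109259-75109508, plus strand): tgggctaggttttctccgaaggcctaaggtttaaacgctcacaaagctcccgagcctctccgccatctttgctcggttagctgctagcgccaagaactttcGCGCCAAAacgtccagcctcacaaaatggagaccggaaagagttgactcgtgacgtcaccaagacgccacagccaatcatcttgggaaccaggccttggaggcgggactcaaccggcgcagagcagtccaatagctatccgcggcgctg
Mcm6 (chr1:128359706-128359955, minus strand): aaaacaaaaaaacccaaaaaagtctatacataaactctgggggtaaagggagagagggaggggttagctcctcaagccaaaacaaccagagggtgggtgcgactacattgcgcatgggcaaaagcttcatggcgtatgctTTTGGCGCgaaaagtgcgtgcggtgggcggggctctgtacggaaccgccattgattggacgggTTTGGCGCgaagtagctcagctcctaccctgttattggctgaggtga
Mcm7 (chr5:138171884-138172133, minus strand): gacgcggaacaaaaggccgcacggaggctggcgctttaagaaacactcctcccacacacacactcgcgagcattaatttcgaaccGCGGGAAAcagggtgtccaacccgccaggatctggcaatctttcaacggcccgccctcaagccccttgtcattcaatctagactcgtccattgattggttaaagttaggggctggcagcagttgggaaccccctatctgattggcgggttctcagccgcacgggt
Pola1 (chrX:93632156-93632405, minus strand): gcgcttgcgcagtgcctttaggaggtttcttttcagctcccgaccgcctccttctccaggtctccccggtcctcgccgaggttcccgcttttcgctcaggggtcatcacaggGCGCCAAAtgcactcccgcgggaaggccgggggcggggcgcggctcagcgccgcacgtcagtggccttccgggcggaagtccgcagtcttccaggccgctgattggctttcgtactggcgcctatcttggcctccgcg

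Mcm10 and Rrm1, which were among the genes at least 1.5-fold lower in Rbpj-/-, have neither 8-letter E2F word in this window, but the Rrm1 sequence holds the shorter TTCCCGC. They are examples and do not stand for all genes that much lower. Among those, Cdc45, Pold2, Rpa2 and Chaf1a likewise have CCAAT and neither 8-letter E2F word. Fen1 and Tk1 have neither those words nor CCAAT, Rfc3 has an E2F word and CCAAT, and Gins2 had no promoter sequence. Mcm10 and Rrm1 both have CCAAT, and only CCAAT is in capitals here.
Mcm10 (chr2:5012792-5013041, minus strand): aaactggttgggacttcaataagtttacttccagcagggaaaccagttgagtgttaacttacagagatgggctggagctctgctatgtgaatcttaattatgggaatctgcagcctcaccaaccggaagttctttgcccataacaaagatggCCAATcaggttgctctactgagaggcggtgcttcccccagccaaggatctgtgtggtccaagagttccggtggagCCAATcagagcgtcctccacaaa
Rrm1 (chr7:102441445-102441694, plus strand): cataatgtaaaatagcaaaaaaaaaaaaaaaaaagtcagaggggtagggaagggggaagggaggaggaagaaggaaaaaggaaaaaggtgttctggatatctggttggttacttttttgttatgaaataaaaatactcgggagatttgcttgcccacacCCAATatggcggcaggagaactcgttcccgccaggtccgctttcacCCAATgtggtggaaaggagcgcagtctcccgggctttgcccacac

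The 12 genes with an 8-letter E2F word had a median difference of -0.35 in Rbpj-/- against WT, and the 24 measured genes without it had one of -0.49. This split uses the 8-letter words alone, and genes without them can hold the shorter ones. The largest difference among the 12 was that of Rfc3 and the smallest that of Dnmt1.

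Origin licensing was lower in Rbpj-/- in each of its 4 genes. Orc1 encodes the largest subunit of the origin recognition complex and is its cell cycle regulated part. Its dim probe had levels of -2.82 in WT and -2.94 in Dll1-/- and was not well above background in Rbpj-/-, which gives only a bound of at least 1.26-fold lower than WT. Orc6, a small subunit of the same complex, had levels of 3.29 in WT, 3.28 in Dll1-/- and 2.80 in Rbpj-/-. The WT and Dll1-/- arrays thus read alike and Rbpj-/- was lower by 1.41-fold. Cdt1, which brings the helicase to the origin, was likewise lowest in Rbpj-/-, with levels of 4.44 in WT, 4.45 in Dll1-/- and 4.06 in Rbpj-/-. Cdc6, the ATPase that works with ORC in loading, stood at -1.88, -1.46 and -2.41 as a mean of 2 probes. Its dimmer probe was well above background on the Dll1-/- array alone. By the probe measured on all arrays, Cdc6 was at 0.18 in Dll1-/- and -0.88 in Rbpj-/- against WT, so its mean difference of 0.43 in Dll1-/-, the highest of the 44 genes there, rests on the dim probe.

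The 6 subunits of the MCM2-7 ring, the motor that unwinds DNA, were all lower in Rbpj-/- by modest amounts, with a median of -0.40 and a range from -0.57 to -0.25. In Dll1-/- they lay between -0.04 and 0.10. Mcm3 had levels of 4.86 in WT, 4.82 in Dll1-/- and 4.28 in Rbpj-/-. Mcm2, a docking site for kinase and histones, had levels of 2.45, 2.48 and 1.97 in the same order. In both, WT and Dll1-/- lay within 0.04 of each other and Rbpj-/- apart. Mcm5 had levels of 4.10, 4.19 and 3.66, and Mcm4 levels of 4.84, 4.87 and 4.49. Mcm6 and Mcm7 differed least from WT in Rbpj-/-, at -0.25 each. Their Rbpj-/- levels were 6.08 and 4.64, against 6.33 and 4.90 in WT.

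Partners that turn the MCM ring into an active helicase were lower in Rbpj-/- with a median of -0.51, and 3 of 6 reached 1.5-fold. Mcm10, which takes part in origin firing, had levels of 2.25 in WT, 2.33 in Dll1-/- and 1.60 in Rbpj-/-, a 1.57-fold difference from WT. Cdc45, an essential part of the active helicase, was dim on every array, with levels of -2.36, -2.39 and -2.96, and its software error against WT was 0.38. The genes of the GINS complex differed from each other in their pattern. Gins1 was near WT in Dll1-/- at 0.04 and lower in Rbpj-/- at -0.42. Gins2 was lower in both, with levels of -0.30 in WT, -0.59 in Dll1-/- and -0.94 in Rbpj-/-. Gins3 had levels of 6.11, 5.68 and 5.73, so that both knockouts lay below WT and within 0.05 of each other. Its difference of -0.43 in Dll1-/- was the lowest of the 44 genes there and the only one lower by more than 2 software errors, beside 4.53% of all genes. Gins4 was at -0.14 in Dll1-/- and -0.27 in Rbpj-/-, the smallest difference of the 4 GINS genes in Rbpj-/-.

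Polymerase and primase genes were lower in Rbpj-/- in 8 of 8, with a median of -0.35, and 1 reached 1.5-fold. That was Pold2, an accessory subunit of polymerase delta, with levels of 0.89 in WT, 0.76 in Dll1-/- and 0.18 in Rbpj-/-. Its catalytic partner Pold1 had levels of 4.12, 4.14 and 3.84, a smaller difference of -0.27. In polymerase alpha, which lays down the first DNA after the primer, Pola1 and Pola2 differed from WT by -0.17 and -0.19, within the software's error for each. The primase subunits Prim1 and Prim2 were at -0.38 and -0.41. Pole, the catalytic subunit of polymerase epsilon, was at -0.58 by its bright probe and at -0.20 by a dim one, a mean of -0.39. The dim probe of Pole was well above background on the Dll1-/- array alone, so only the bright probe measured this difference. Pole2, the second subunit of that enzyme, was at -0.32. In Dll1-/- the 8 genes lay between -0.14 and 0.18, where the upper end is Pole with its dim probe, and the bright probe of Pole read -0.07.

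The sliding clamp and its loader were lower in Rbpj-/- in 5 of 5, with a median of -0.46. Pcna, the clamp itself, differed least, with levels of 5.92 in WT, 5.96 in Dll1-/- and 5.69 in Rbpj-/-. Rfc3, a small subunit of the loader, differed most, with levels of -0.91, -1.17 and -1.55. Rfc2 and Rfc5 were at -0.53 and -0.46 in Rbpj-/-, and at -0.20 and -0.12 in Dll1-/-. Each thus read below WT on both knockout arrays, but in Dll1-/- both differences were within the software's error. The 2 probes for Rfc4 gave -0.38 and -0.09 in Rbpj-/-. The brighter of them read the smaller difference.

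RPA coats single-stranded DNA as a trimer of Rpa1, Rpa2 and Rpa3, and among the roles its genes lay furthest apart in Rbpj-/- against WT, though not in the other comparisons. Rpa2 had levels of 3.64 in WT, 3.49 in Dll1-/- and 2.98 in Rbpj-/-, a 1.57-fold difference. Rpa3 was at -0.24 in Rbpj-/-. Rpa1, the large DNA-binding subunit, had levels of 5.71, 5.76 and 5.83 and was the only measured gene above WT in Rbpj-/-, by 0.12, which is less than its software error of 0.20 and becomes -0.05 with the arrays scaled to their medians and -0.63 with spike-in scaling. The difference of Rpa1 from WT lay above that of Rpa2 by 0.77 log2 in Rbpj-/- and by 0.20 in Dll1-/-, and scaling an array as a whole leaves these gaps as they are.

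Enzymes that finish lagging strand pieces were both lower. Fen1, the nuclease that trims the flap, had levels of 4.26 in WT, 4.11 in Dll1-/- and 3.56 in Rbpj-/-, a 1.63-fold difference from WT. Lig1, the ligase that seals the nick, had levels of 4.27, 4.26 and 3.70. On the Rbpj-/- array both lay below both other arrays by more than 0.5 log2.

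Nucleotide supply genes had a median of -0.57 in Rbpj-/-, with 5 of 5 lower. Ribonucleotide reductase makes deoxynucleotides from a large subunit, Rrm1, and a small one, Rrm2. Rrm1 had levels of 2.62 in WT, 2.56 in Dll1-/- and 1.92 in Rbpj-/-, and Rrm2 had levels of 3.92, 3.93 and 3.38. Tk1, the S phase thymidine kinase, had levels of 2.68, 2.68 and 2.09. For Tk1 the WT and Dll1-/- arrays read the same to 2 decimals and Rbpj-/- was lower by a log2 difference of -0.59. Tyms, which makes thymidylate, rests on a dim probe and was at -0.32 in Dll1-/- and -0.57 in Rbpj-/-, with software errors of 0.28 and 0.32. Dut, which clears dUTP, differed least, at -0.22 in Rbpj-/-.

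Genes that copy chromatin were lower in Rbpj-/- in 5 of 5, with a median of -0.28 and a wide range from -0.76 to -0.10. Chaf1a, the large subunit of the histone chaperone CAF-1, had levels of 0.87 in WT, 0.76 in Dll1-/- and 0.11 in Rbpj-/-, and its 1.69-fold difference was the largest of the 43 by the mean over probes, while Cdc6 by its brighter probe alone, at -0.88, lay further from WT. Chaf1b, its partner, was at -0.50 and -0.35 by its 2 probes, a mean of -0.43. Dnmt1, which copies DNA methylation to the new strand, was at -0.12, and Slbp, which binds the end of histone messages, at -0.10, both within the software's error. The 2 probes for Slbp pointed opposite ways, at -0.32 and 0.11. So did those for Uhrf1, which guides Dnmt1 to the fork. Its bright probe had levels of 3.73 in WT, 3.80 in Dll1-/- and 3.04 in Rbpj-/-, a difference of -0.69, and its dim probe was at 0.14. By its bright probe alone Uhrf1 would be among the genes at least 1.5-fold lower.

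**Figure D3:**
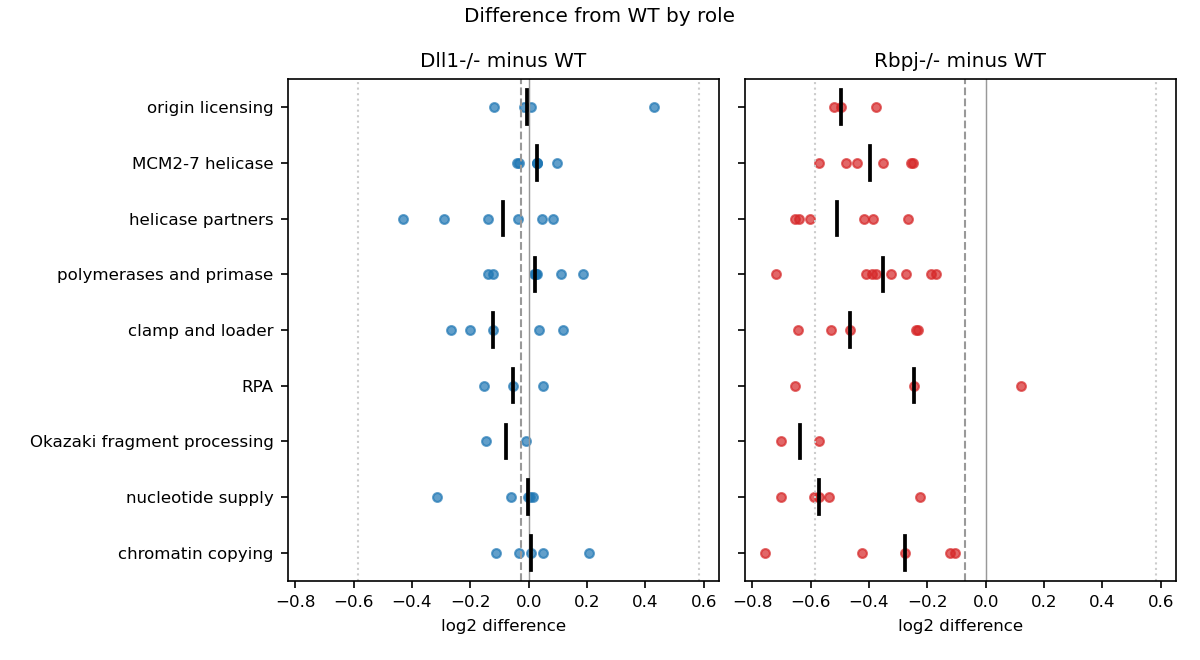
Log2 difference from WT (x axis) of each measured gene (dots) by role (rows), for Dll1-/- at left and Rbpj-/- at right; black bars are medians, the dashed line is the median of all genes and the dotted lines mark 1.5-fold. In Rbpj-/- each role has its median left of the dashed line, from -0.24 for RPA to -0.64 for Okazaki fragment processing, and in Dll1-/- the medians lie between -0.12 and 0.03.

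A wider list of 87 genes was read beside them, of replication, fork protection, repair at forks, E2F control, histone chaperones and nucleotide synthesis. Of 82 measured, 68 were lower in Rbpj-/- than in WT, with a median of -0.27, beside 60.2% of all genes, and 8 were at least 1.5-fold lower, beside 6.92%. In Dll1-/- 41 of 83 were lower, with a median of 0.00. Hells, a chromatin remodeller needed for DNA methylation, was the furthest apart, with levels of 4.26 in WT, 4.90 in Dll1-/- and 3.10 in Rbpj-/-. It was thus above WT by 0.64 on the Dll1-/- array and 2.25-fold below it on the Rbpj-/- array. Clspn, which carries checkpoint signals at the fork, was at 0.31 and -0.91, and Cdc7, the kinase that fires origins, at 0.44 and -0.44. The genes furthest below WT in Dll1-/- were the histone chaperone Asf1a at -0.50, the cohesin acetyltransferase Esco2 at -0.46, the polymerase delta subunit Pold4 at -0.42 and the mitochondrial kinase Tk2 at -0.40. Clspn, Asf1a and Esco2 rest on 1 dim probe each, with WT levels of -1.66, -2.56 and -2.23. The Esco2 probe was not well above background in Rbpj-/-. The repair genes Exo1 and Rad51ap1 were at -0.80 and -0.77 in Rbpj-/-. The largest differences upward in Rbpj-/- were the origin subunit Orc3 at 0.47, the salvage kinase Dck at 0.42, the E2F repressor Rb1 at 0.35 and the crosslink repair gene Fanci at 0.33. These 4 lie above WT by the reported scaling and below it with spike-in scaling, which puts the median of all genes at -0.82. Between the knockouts, Hells at -1.80, Clspn at -1.23, Cdc7 at -0.89 and Exo1 at -0.87 were furthest below Dll1-/- in Rbpj-/-, and Asf1a at 0.77, Fanci at 0.35, Rb1 at 0.33 and Orc3 at 0.33 furthest above.

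The E2F and S phase control genes had a median of -0.25 in Rbpj-/-, with 12 of 14 lower. E2f1, an activator, had levels of 1.54 in WT, 1.56 in Dll1-/- and 0.95 in Rbpj-/-. E2f2, also an activator, had levels of 1.82, 1.94 and 2.02 and so was not lower by the reported scaling. E2f8, a repressor, was at 0.42 in Dll1-/- and -0.24 in Rbpj-/-. Of the S phase cyclins, Ccna2 was at -0.46 and Ccne1 at -0.36 in Rbpj-/-, and the Ccne2 probe was not well above background. In Dll1-/- 10 of the 14 were higher, with a median of 0.09, beside 44.4% of all genes higher.

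In bulk RNA such as this, fewer cells in S phase and less RNA per cell cannot be told apart. The general cycling markers Mki67, Top2a, Ccnb1, Cdk1 and Birc5 were also lower in Rbpj-/-, in 5 of 5 measured, with a median of -0.48, and Aurkb was not well above background. Their summed linear level was 15.6 in WT, 14.2 in Dll1-/- and 10.9 in Rbpj-/-. T cell markers were present on every array, with 6 of 7 listed well above background and a summed level of 584 in WT, 563 in Dll1-/- and 636 in Rbpj-/-, and Trac was not matched to a probe. Markers of other cells were present too and differed between arrays. The B cell markers Cd79b and Ms4a1 were well above background on all arrays. Cd79b had levels of 3.41 in WT, 3.41 in Dll1-/- and 2.88 in Rbpj-/-, and Ms4a1 had levels of 2.48, 2.50 and 1.75. The sum of linear levels over the NK list was 15.1, 13.8 and 7.47, with Ncr1 above background on no array, and such a sum is led by its brightest probe. Nkg7 had levels of 3.74, 3.58 and 2.29, whereas Klrd1 differed from WT by 0.46 in Rbpj-/- and by -0.02 in Dll1-/-, and Klrb1c was above background in both knockouts and not in WT. The sum of Cd8a and Cd8b1 was 1.23, 1.21 and 0.80. The myeloid sum was 6.01, 5.57 and 6.70, with Cd14 and Adgre1 above background on no array. Of the dendritic list only Siglech was above background, with levels between 9.07 and 9.26, and of the erythroid list none. Siglech rests on 1 probe, while Flt3, Zbtb46 and Xcr1 were not above background, and what that probe reads was not tested. The part of other cell types in the replication differences was not tested.

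The size of the shift depends on how the arrays are scaled. Scaling a whole array moves all its genes alike, so the distance of the replication genes from the others is fixed under the median and spike-in scalings. The authors' values differ from the signals almost only by a constant for each array, so they could hardly change it. The distance can change only under the other settings. With E1A spike-in scaling all genes had a median of -0.82 in Rbpj-/- and -0.27 in Dll1-/-, and the replication genes had medians of -1.17 and -0.24. With scaling to each array's median the values in Rbpj-/- were -0.24 for all genes and -0.58 for the replication genes. Over the 13 settings the replication median in Rbpj-/- lay below that of all genes by between 0.29 and 0.42 log2, and in Dll1-/- the replication median minus that of all genes ran from -0.05 to 0.11. Of the 43 genes, 3 changed sign in Rbpj-/- in some setting. Rpa1 did so with array median and spike-in scaling, Slbp was above WT by its brighter probe alone, and Uhrf1 was above WT by its dim probe alone.

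**Figure D4:**
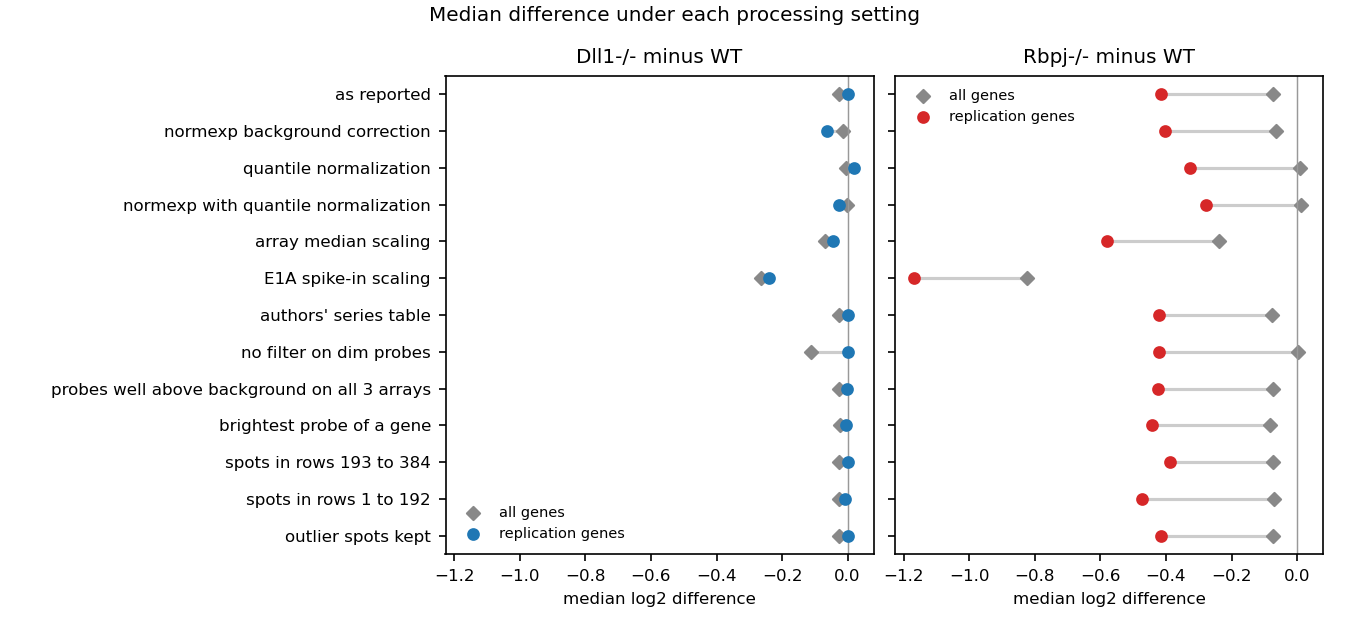
Median log2 difference from WT (x axis) under the reported processing and 12 alternatives (rows), for the replication genes (circles) and all measured genes (diamonds); Dll1-/- is at left and Rbpj-/- at right. In Rbpj-/- the circle lies left of the diamond in every row, and in Dll1-/- they lie close together.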

How the data were processed

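Total RNA (20 ng) was labelled with Cy3 and read on 1 Agilent array per genotype, all on 1 slide, per the labels' protocols and the file headers. The deposited intensity is the processed signal of Agilent Feature Extraction (version 10.7, per the submitters' processing notes), already background-subtracted. The deposited series table holds the authors' log2 values, equal to log2 signal minus a constant for each array to within 0.01 for at least 99.66% of probes, with column medians of -3.44, -3.40 and -3.28. Its direction and scale follow from that match, and no centring by gene was found.

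From the scanner files, control spots and spots called outliers (139 to 163 per array) were left out, log2 signals were taken minus each array's 75th percentile, and repeat spots were averaged. Per array, 46.6% to 50.2% of 55681 probes were well above background and none was saturated; only 1 array per group limits the precision. Accessions named 27509 probes (20887 genes) through RefSeq (GRCm38.p6); the array's design is older. A gene's difference is the mean over its probes, taken where at least 1 is well above background on both arrays. Otherwise a bound was computed as the brighter array's level over the higher of the dim probe's own level and the lowest signal well above background. Genes at least 1.5-fold apart were counted, and no test was possible with 1 array per group. Named genes outside the 44 are the 4 furthest apart in each direction among listed pathway genes, plus E2f1, E2f2, Ccna2 and Ccne1, chosen after their values were seen. Some listed genes are not reported here. The 44 genes and all lists were chosen with earlier results of these data known. The counting of differences was tested on simulated data, made from the WT array with known folds planted in bright genes. That simulation kept the background flags of the WT array and the noise of repeat spots. It therefore does not cover dim probes or the spread between real arrays. limma 3.58.1 gave normexp and quantile alternatives. The files used hold no mean signal column, so normexp took the median signal.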

Additional observations from a re-analysis of the deposited data

How the results depend on the processing

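No paired analysis was possible because each genotype has 1 array. No alternative reversed the median of the 44 genes in Rbpj-/- against WT or against Dll1-/-. Against WT, array median scaling gave a median of -0.58 with 21 genes at least 1.5-fold lower (12.5% of all genes), E1A spike-in scaling -1.17 with 43 (78.1%), and normexp with quantile normalization -0.28 with 1 of 43, a share no higher than the 2.36% of all genes. Against Dll1-/-, array median scaling gave -0.50 with 17 genes (9.17% of all genes), spike-in scaling -0.89 with 40 (43.3%), normexp with quantile normalization -0.26 with 1 (3.21%), and normexp alone 3 genes (3.58%). In Dll1-/- against WT, spike-in scaling gave a median of -0.24 with 1 gene at least 1.5-fold lower (7.42%). With spots in the higher-numbered rows of the array alone, 25 genes could be measured. Of these, 5 were at least 1.5-fold lower in Rbpj-/- than in WT (6.5% of all genes). Against Dll1-/- the count was 2 of 25, a share close to the 5.91% of all genes. In the lower-numbered rows alone the count against WT was 6 of 20 (7.22% of all genes). The share of all genes lower in Rbpj-/- than in WT ran from 47.7% with normexp and quantile normalization to 97.1% with spike-in scaling, so the direction of a single gene near 0 depends on the scaling. Naming probes by a gene name column was planned and not run, since the scanner files used here have no such column. Genes with dim probes, among them Orc1, Cdc45, Pola2, Tyms and the second probes of Cdc6 and Pole, are limited by signal over background.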
